A study of Mus musculus with 8 samples.

Results

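The 7 Reg family genes of the mouse (Reg1, Reg2, Reg3a, Reg3b, Reg3d, Reg3g and Reg4) were followed in the embryonic pancreas after deletion of Sox9, a transcription factor of the progenitor and duct epithelium. They were found by gene name among the probes of a one-colour Agilent mouse array, where Reg3b carries its older name Pap. All 7 of 7 were present, with 1 probe each, among 27822 genes and unnamed transcripts on the array. They were chosen for higher signals in the mutant arrays of these same data, so the differences of the Reg genes between genotypes are given below as a description. The calls that the fit over all features made for them use the same contrast and are no independent test.

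The study compared 4 RNA pools of Sox9 mutant pancreatic epithelium (genotype Sox9fl/fl; Rosa26-CreER) with 4 pools of wild-type littermates (Rosa26-CreER), all taken at e15.5, the stage at which acinar, duct and endocrine cells separate. Dams of both groups had received tamoxifen, at 6 mg per 40 g, at e12.5, and both groups carry the CreER allele. CreER is expressed from the ubiquitous Rosa26 locus, so the deletion is not restricted to the epithelium. Each pool held the pancreata of 4 embryos, dissected by hand and containing dorsal and ventral epithelium, on a mixed FVB/N, C57Bl/6J and CD1 background. The labelling reaction started from some 250 ng of RNA and used Cy3.

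Reg proteins are small secreted proteins built around a C-type lectin fold. Reg1, also known as lithostathine or pancreatic stone protein, and the closely related Reg2 are products of pancreatic acinar cells. Reg3b (pancreatitis-associated protein, PAP) and Reg3g are secreted by gut epithelium, where they act on bacteria, and are acute phase products of the injured adult pancreas. Cytokines that signal through gp130 or the IL-22 receptor to STAT3 induce Reg3 genes in gut and pancreas, and Extl3 has been described as a receptor for Reg proteins. Reg3d is related to the islet neogenesis-associated protein of the hamster, and Reg4 is known from intestinal endocrine and secretory cells.

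The probes of 6 of the 7 genes lay on chromosome 6 within 93.2 kb (78302838 to 78395994, build mm8), in the order Reg3b, Reg3d, Reg3a, Reg2, Reg1 and Reg3g. The Reg4 probe lay on chromosome 3 (98318487 to 98321733). RefSeq promoter windows of build GRCm38.p6 were found for all 7. The 250 bases before the annotated start are shown for the 4 genes whose 4 mutant pools all lay above all 4 wild-type pools. These are Reg1 (chr6:78425733-78425982, plus strand), Reg3b (chr6:78370635-78370884, plus strand), Reg3d (chr6:78378866-78379115, minus strand) and Reg3g (chr6:78468875-78469124, minus strand), each written 5′ to 3′ on its own strand. Capitals mark, on either strand, a TATA box (TATAAA), the spaced STAT palindrome (TTCNNNGAA) and the TC-box of the acinar PTF1 complex (TGGGAAA).
Reg1: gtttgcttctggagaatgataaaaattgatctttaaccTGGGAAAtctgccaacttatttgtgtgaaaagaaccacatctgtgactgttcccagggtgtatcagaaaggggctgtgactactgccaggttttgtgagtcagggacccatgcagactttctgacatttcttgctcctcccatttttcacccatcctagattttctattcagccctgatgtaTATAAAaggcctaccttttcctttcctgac
Reg3b: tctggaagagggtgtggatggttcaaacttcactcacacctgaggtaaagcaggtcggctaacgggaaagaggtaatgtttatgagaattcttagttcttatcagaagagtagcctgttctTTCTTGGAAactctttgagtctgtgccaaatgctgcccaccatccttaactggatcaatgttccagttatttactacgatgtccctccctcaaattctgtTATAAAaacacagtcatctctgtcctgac
Reg3d: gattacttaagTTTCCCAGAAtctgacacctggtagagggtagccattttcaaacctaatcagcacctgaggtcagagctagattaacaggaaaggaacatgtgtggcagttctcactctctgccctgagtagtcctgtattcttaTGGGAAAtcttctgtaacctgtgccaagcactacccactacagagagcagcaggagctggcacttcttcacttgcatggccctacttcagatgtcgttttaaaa
Reg3g: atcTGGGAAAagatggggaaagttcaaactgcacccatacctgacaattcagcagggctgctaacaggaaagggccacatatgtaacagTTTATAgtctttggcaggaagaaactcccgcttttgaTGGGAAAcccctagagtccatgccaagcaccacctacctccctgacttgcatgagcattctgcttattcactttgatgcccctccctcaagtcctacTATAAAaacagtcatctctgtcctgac

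In windows reaching 250 bases before and 50 after the start, the TATA box was found in 4 of the 7 genes, against 13.6% of 32851 mouse promoter windows. Its first base lay at -30 in Reg1 and Reg2, at -29 in Reg3b and at -27 in Reg3g. The STAT palindrome was found in Reg3b at -129 and in Reg3d at -238, and in 8.3% of all windows. The PTF1 TC-box was found in Reg1, Reg3d and Reg3g (8.06% of all windows), and one of its matches in Reg3d, on the opposite strand at -239, overlaps the STAT palindrome. An E-box (CANNTG) occurred in all 7 genes and in 72.3% of all windows, and the GATA motif AGATAA in Reg4 alone of the 7 and in 11.2%. The SOX motif ACAATG occurred in 0 of the 7 windows and in 12.6% of all. A match is a match of letters and not a measured site, and no match says only that these letters are not in this window.

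The Reg3b and Reg3g windows were the most alike of the 21 pairs, with 69.0% identical positions in a global alignment. The Reg1 and Reg2 windows followed with 58.5%. Aligned to 3285 windows of other genes, the Reg3b window had a median identity of 48.9% and a highest of 55.6%, and the Reg1 window a median of 48.6% and a highest of 54.8%. Reg3g and Reg4, the least alike pair of the family, shared 49.1%.

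**Figure D1:**
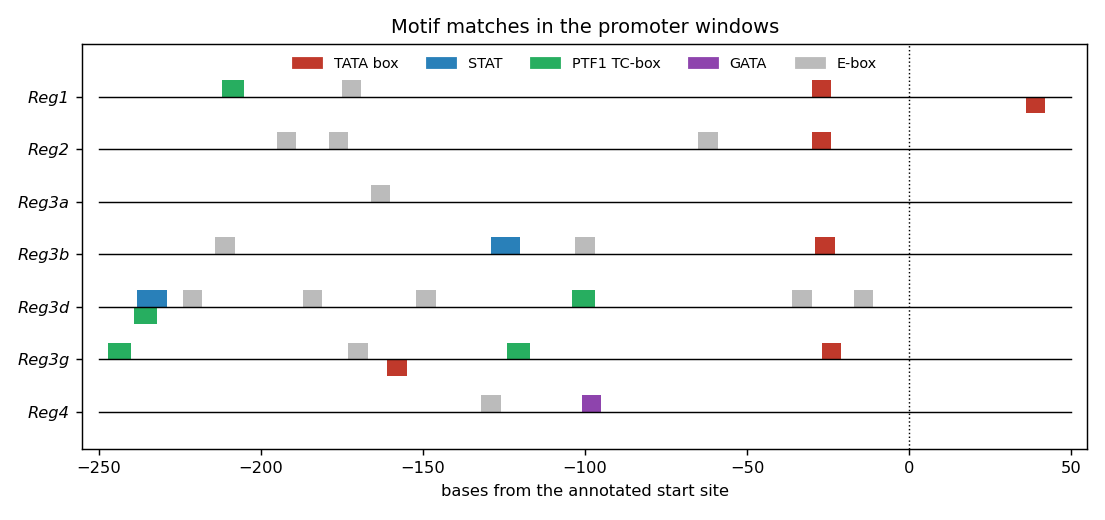
Motif matches in the promoter windows of the 7 Reg genes, by distance in bases from the annotated start site (dotted line). Boxes above a line are matches on the gene's strand and boxes below it matches on the opposite strand; the TATA box stands between -30 and -27 in Reg1, Reg2, Reg3b and Reg3g.

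The arrays were alike in signal except 1. The array of mutant replicate 2 had a median processed signal of 756, against 219 to 272 on the other 7 arrays, and 86.1% of its spots were well above background, against 69.6% to 74.0%. Its median correlation with the arrays of its own genotype was 0.923, against 0.993 to 0.996. Of 10624 probes that were not well above background on any wild-type array, 63.1% were so on mutant replicate 2, against 6.91%, 2.27% and 2.26% on mutant replicates 1, 3 and 4. The differences of the Reg genes and the counts of calls are therefore also given without mutant replicate 2. All mutant pools were hybridised on one slide and all wild-type pools on the other, so slide and genotype cannot be told apart. Sox9 itself, measured by the probe with the highest mean signal of 3, was at 0.50 ± 0.08 in mutant and 1.83 ± 0.07 in wild-type pools (log2 level, with each array's 75th percentile at 0, mean ± SD, n = 4 each). It was 2.51-fold lower in mutants (limma adjusted p = 0.000806; two-sided exact permutation p = 0.0286, the smallest that 4 against 4 allows), and its log2 difference was -1.33 with all arrays and -1.30 without mutant replicate 2. A second Sox9 probe was also lower in every mutant pool, at -0.86 to -0.17 against 1.98 to 2.20 in wild-type pools. The third did not separate the genotypes, at -2.31 to -0.57 in mutant and -2.73 to -2.28 in wild-type pools, and the labels do not say which part of Sox9 is deleted.

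Reg1, the acinar lithostathine, had processed signals of 80656, 47059, 61366 and 139715 in mutant pools 1 to 4, against 14325, 12787, 20173 and 26230 in wild-type pools. Every mutant pool lay above every wild-type pool, and mutant replicate 4 was highest. The mean was 3.92-fold higher in mutants, a log2 difference of 1.97 (SE 0.40), and 2.25 on the log2 scale without mutant replicate 2. The probe was far above background on all 8 arrays and saturated on none.

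Reg2, the second lithostathine-like gene of the mouse, gave a low signal. Its values were 72.9, 644, 38.5 and 386 in mutant pools 1 to 4, against 6.07, 6.09, 10.2 and 49.0 in wild-type pools. The groups overlapped, since wild-type replicate 4 lay above mutant replicate 3. The probe was well above background on 4 of 4 mutant arrays and on 1 of 4 wild-type arrays, and 2 of the wild-type values were surrogates set by the scanner software. The log2 difference was 3.67 (SE 1.04) with all arrays and 3.06 without mutant replicate 2. With a background correction by the normexp model it was 0.66.

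Reg3b, the pancreatitis-associated protein, had signals of 8641, 2001, 196 and 34225 in mutant pools 1 to 4, against 44.7, 8.26, 24.5 and 149 in wild-type pools. All mutant pools lay above all wild-type pools, but mutant replicate 3 only narrowly, and mutant replicate 4 was 174-fold above mutant replicate 3. The mean difference was 6.46 on the log2 scale (SE 1.62), or 88.3-fold, and 108-fold without mutant replicate 2. It ranked 1 of 19393 features by size with all arrays and again without mutant replicate 2. The wild-type signal was well above background on 3 of 4 arrays, and the fold depended on how the low wild-type signals were treated. It was 15.3-fold after normexp background correction and 20.5-fold in the deposited series table.

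Reg3g, the antibacterial lectin of the gut, had signals of 790, 812, 272 and 2360 in mutant pools 1 to 4, against 76.1, 70.5, 74.9 and 95.5 in wild-type pools. The wild-type pools were close together, with the highest 1.27-fold above the lowest, while the mutant pools spanned 8.66-fold. The difference was 3.22 on the log2 scale (SE 0.58), or 9.32-fold. It was 3.26 without mutant replicate 2 and 1.82 after normexp background correction.

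Reg3d had signals of 956, 1169, 629 and 1227 in mutant pools 1 to 4, against 262, 297, 428 and 564 in wild-type pools. The groups did not overlap, and the nearest pools were mutant replicate 3 and wild-type replicate 4. The difference was 1.25 on the log2 scale (SE 0.28), or 2.39-fold, the smallest of the 5 genes that passed the filter on dim probes. It was 1.21 without mutant replicate 2.

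That filter kept a probe that was well above background on at least 4 of the 8 arrays, and Reg3a and Reg4 did not pass it. Reg3a had signals of 49.5, 554, 9.40 and 146 in mutant pools 1 to 4, against 15.1, 8.24, 8.46 and 15.6 in wild-type pools. It was well above background on 3 of 4 mutant and 0 of 4 wild-type arrays, and mutant replicate 3 lay inside the wild-type range. Set against the lowest signal called well above background on each wild-type array, the mutant mean was 3.00-fold higher, and 1.62-fold without mutant replicate 2. These folds are no lower bounds, since mutant replicate 3 enters them at a signal that was not well above background. Reg4, the distant family member on chromosome 3, had signals of 5.45, 520, 5.15 and 4.85 in mutant pools 1 to 4, against 6.02, 6.11, 4.14 and 5.97 in wild-type pools. Of these values 3 mutant and 3 wild-type ones were surrogates set by the scanner software. Reg4 was well above background on mutant replicate 2 alone, the array that stands apart. Reg2 and Reg3a were also highest there among all 8 arrays. The part of that array in these signals was not tested. Without it no pool had Reg4 well above background, so no fold is given for this gene.

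**Figure D2:**
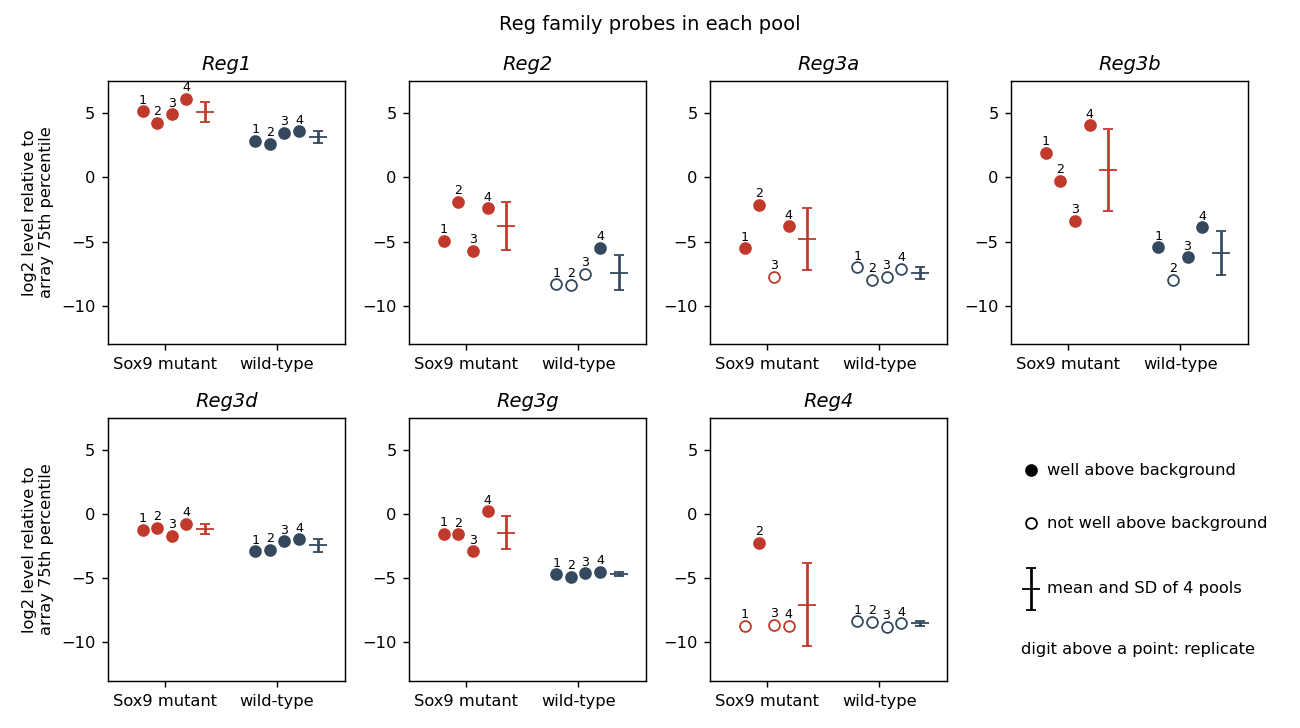
Levels of the 7 Reg probes in each of the 8 pools, as log2 of the processed signal with each array's 75th percentile at 0, with Sox9 mutant pools on the left and wild-type pools on the right of each panel. Filled points are well above background, open points are not, digits name the replicate and bars give the mean and SD of 4 pools; Reg1, Reg3b, Reg3d and Reg3g do not overlap between genotypes, and Reg4 is high in mutant replicate 2 alone.

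The limma fit over all 19393 features called 5.58% of them at an adjusted p under 0.05, 2.13% as higher and 3.45% as lower in mutants. The 5 Reg genes in the fit were chosen on this same contrast, so their calls support nothing and are listed only for completeness. They were 3 of 5 higher (Reg1, Reg3d and Reg3g) and 0 lower. Without mutant replicate 2 the calls were 4 of 5, with Reg3b added, and 6.77% of all features were then called higher. In 4 of the 7 genes, all 4 among the 5 tested, the mutant pools lay wholly above the wild-type pools. This held for 10.6% of all features tested, a share that leaves out dim probes such as those of Reg3a and Reg4. The median difference of the 5 genes was 3.22 on the log2 scale and that of all features -0.0045, a gap that the choice of the genes fixes. Reg2 counts among the 5 only through its mutant arrays. In a bulk pool, more cells that make a Reg gene and more Reg RNA per cell cannot be told apart.

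Leaving out each array in turn kept every one of the 5 differences positive. For Reg1, Reg3b, Reg3d and Reg3g this sign was fixed in advance, since all their mutant pools lay above all wild-type pools. The 5 differences ranged over 1.64 to 2.25 for Reg1, 3.06 to 4.33 for Reg2 and 5.30 to 7.79 for Reg3b. For Reg3d the range was 1.10 to 1.42, and for Reg3g 2.67 to 3.71. Of these 8 refits, 5 called 0 Reg genes (limma, adjusted p under 0.05). The shares of all features called in those 5 were 2.21% without mutant replicate 1 and 1.85%, 2.06%, 1.89% and 2.75% without wild-type replicates 1 to 4. Reg3b and Reg3g were called without mutant replicate 3, where 2.49% of all features were, and Reg3g alone without mutant replicate 4, where 2.41% were. The share of all features called thus did not separate the refits with 0 Reg calls from the others.

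**Figure D3:**
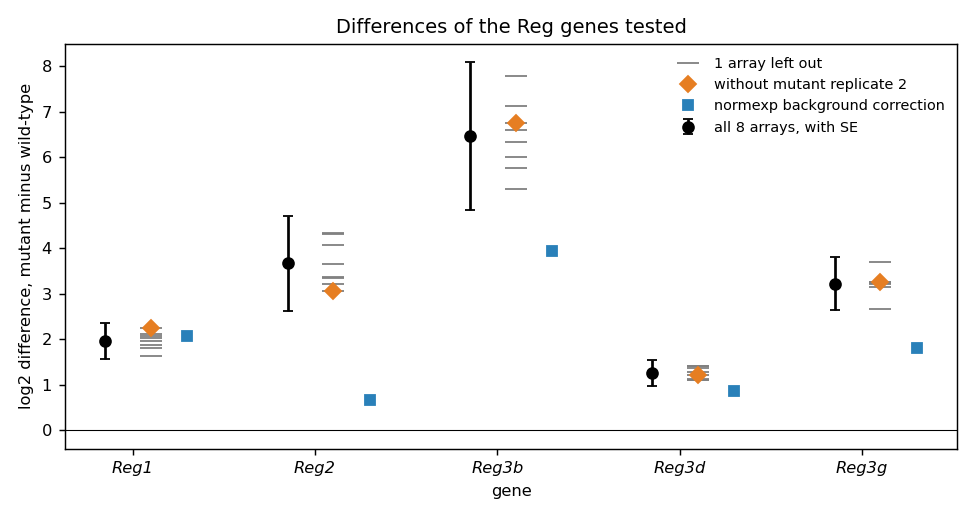
Log2 difference, mutant minus wild-type, of the 5 Reg genes tested. Black points show all 8 arrays with the SE, grey bars the fits with 1 array left out, orange diamonds the fit without mutant replicate 2 and blue squares normexp background correction. All values are above 0, a sign that the choice of the genes favours, and Reg2 is at 0.66 after normexp correction.

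The Reg genes also differed between pools of one genotype. Among wild-type pools, replicate 4 was highest for all 5 Reg genes tested, as it was for 34.4% of all features. Among mutant replicates 1, 3 and 4, all 5 genes had the order replicate 4, replicate 1, replicate 3 from high to low, as did 13.6% of all features. Reg3b varied most, with an SD of 3.18 on the log2 scale among mutant pools, above that of 99.95% of all features. Reg3d had the smallest mutant SD of the 5 genes, 0.40, above that of 70.2% of all features. Without mutant replicate 2 the mutant SD of Reg3d was 0.48, above that of 96.3%. Its wild-type SD of 0.47 was above that of 95.5%. Mutant replicate 2 broke the shared order, being highest for Reg2 and lowest for Reg1.

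**Figure D4:**
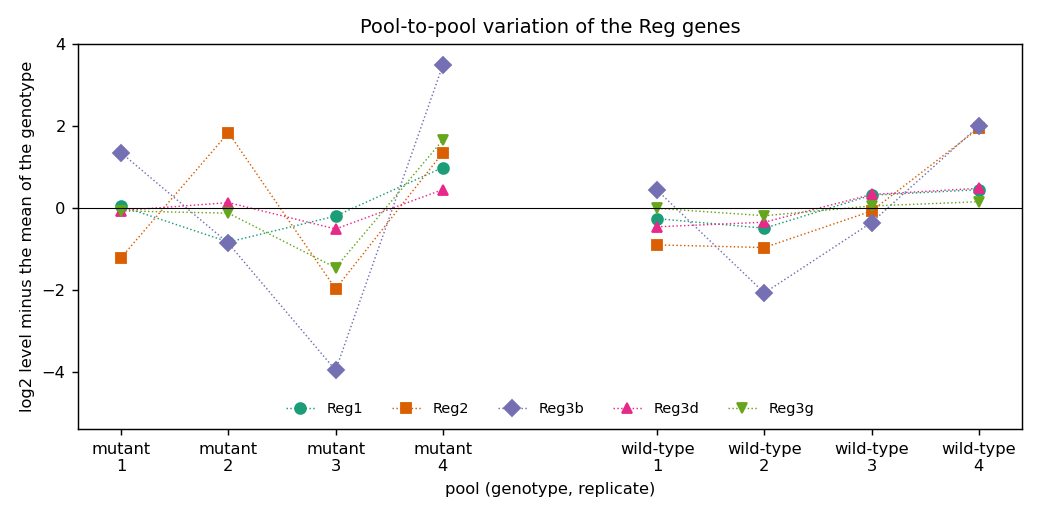
Deviation of each pool from the mean of its genotype, in log2 units, for the 5 Reg genes tested. Mutant replicate 4 and wild-type replicate 4 lie above 0 for all 5 genes and mutant replicate 3 below 0, with the widest spread for Reg3b.

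The levels of the 5 genes were positively correlated across pools. Over the 8 arrays the 10 pairwise Pearson correlations were 0.78 to 0.96, and after the mean of each genotype was removed they were 0.28 to 0.88 with a median of 0.67. Over the 7 arrays without mutant replicate 2 the within-genotype values were 0.70 to 0.94. The Reg1 and Reg2 pair depended most on that array, with a within-genotype correlation of 0.28 with it and 0.93 without it. Reg3b and Reg3g had the highest correlation of the 10 pairs over the 8 arrays, 0.96, and Reg1 and Reg2 the lowest, 0.78. Without mutant replicate 2 the highest was that of Reg1 and Reg3d, 0.97. Many other features were as alike or more alike. By likeness to the first gene of a pair, the second ranked 3 (Reg3b and Reg3g) to 615 (Reg1 and Reg2) of 19392 features over the 8 arrays. Without mutant replicate 2 the ranks ran from 11 (Reg2 and Reg3d) to 218 (Reg1 and Reg3b). Values without removal of the genotype means include the difference the genes were chosen for. All pairs share the same 8 RNA pools and arrays, and these values are a description.

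The closest patterns over the 8 arrays were sought among features with a current gene symbol. For Reg3g they were Krt13, a keratin of stratified epithelia (r = 0.990), Fut10, a fucosyltransferase (0.985), and Ankrd1, an ankyrin repeat protein first known from heart muscle (0.983). Nearest to Reg3b were Ccn1, a secreted matrix-associated protein (0.966), the transcription factor gene Nfia (0.962) and Reg3g itself (0.960). Reg1 was followed most closely by Dapk1, a cell death-associated kinase (0.975), Slc25a30, a mitochondrial carrier (0.966), and Mars1, the methionyl-tRNA synthetase (0.966). Reg3d was nearest to Cxcl5, a chemokine for neutrophils (0.975), Slc25a33 (0.965) and Zfp935 (0.963). Nearest to Reg2 were Chst7, a sulfotransferase (0.964), Lsm12 (0.963) and Spry4, an inhibitor of receptor tyrosine kinase signalling (0.960). These correlations include the difference between genotypes. With the genotype means removed they were 0.85 to 0.97, and 0.74 to 0.98 without mutant replicate 2. Without mutant replicate 2, Reg3g ranked 17 of 19392 features by its likeness to Reg3b, against 3 with all arrays.

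The lists of related genes that follow are read against 5.58% of all features called and 25.5% with an unadjusted p under 0.05. Of 16 genes tested (Extl3, Egfr and a set of cytokines, cytokine receptors, Jak kinases and Stat3), limma called 0 higher and 0 lower in mutants, a count near that background. Of them 1 had an unadjusted p under 0.05, and the median difference was -0.05. Extl3 differed by -0.18 on the log2 scale (adjusted p = 0.443), Stat3 by -0.16 (0.592) and Il6st, the gp130 subunit, by -0.16 (0.383). The smallest p belonged to Lifr, the LIF receptor, at -0.24 (0.0931). Il6, Lif and Il22 were not tested. Among 19 STAT3 and acute phase targets 1 rose, the haemoglobin scavenger haptoglobin (Hp), at -0.90 ± 0.41 in mutant and -2.26 ± 0.20 in wild-type pools (log2, SD, n = 4 each; limma adjusted p = 0.0156). An unadjusted p under 0.05 was found for 6 of the 19, 5 of them higher in mutants. The median of these targets was 0.22, and 0.13 without mutant replicate 2. Socs3, the feedback inhibitor induced by STAT3, differed by 0.33 (adjusted p = 0.199). Hp was at -0.95, -0.30, -1.17 and -1.17 in mutant replicates 1 to 4, and its link to the Reg values was not tested.

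Of 12 genes of the pancreatic injury response 1 rose, the stress-induced transcription factor Atf3, at -0.10 ± 0.45 in mutant and -1.60 ± 0.50 in wild-type pools (limma adjusted p = 0.0379). The median of the list was -0.13, and 0.03 without mutant replicate 2. Nupr1, a stress protein first found in pancreatitis, differed by -0.65 (adjusted p = 0.0990).

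Of 25 other acinar secretory genes tested, limma called 0 in either direction, with 4 at an unadjusted p under 0.05, and their median difference was 0.03, or 0.10 without mutant replicate 2. The smallest p belonged to Pla2g1b, the pancreatic phospholipase, at 1.42 (adjusted p = 0.0668), and to Ctrl, a chymotrypsin-like protease, at 1.08 (0.0958). Of 9 acinar transcription factors 1 fell, Gata6, by 0.27 on the log2 scale (limma adjusted p = 0.0487), and the list had a median of -0.14, or -0.06 without mutant replicate 2.

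Of 15 duct genes 2 rose and 3 fell, among them Hes1, the Notch effector (0.53, limma adjusted p = 0.00723), the secreted phosphoprotein Spp1 (-1.14, 0.00351), the tight junction gene Cldn10 (-0.73, 0.0143) and Sox9. Of 18 endocrine genes 0 rose and 9 fell, led by the endocrine progenitor factor Neurog3 (-1.89, limma adjusted p = 0.00216), Insm1 (-1.67, 0.00263), Fev (-1.15, 0.00267) and Isl1 (-0.88, 0.00998), with a median of -1.13, or -0.84 without mutant replicate 2.

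Markers of other tissues that express Reg genes were counted as well. Of 10 intestinal epithelial genes tested 1 rose, Krt20, a keratin of differentiated intestinal epithelium, at 1.87 ± 0.35 in mutant and -1.87 ± 0.40 in wild-type pools, or 13.3-fold (limma adjusted p = 0.00136). The enterocyte genes Cdx1, Apoa4, Sis, Muc13 and Phgr1 did not pass the filter on dim probes. The intestinal list had a median of -0.56, or -0.99 without mutant replicate 2. Its mean log2 level was -3.58 to -3.49 in mutant replicates 1, 3 and 4. It was -1.24 in mutant replicate 2 and varied from -3.95 to -1.59 among wild-type pools. Of 8 Paneth and goblet products limma called 0, with 3 at an unadjusted p under 0.05. The smallest p values belonged to Mmp7, the Paneth cell protease, at 1.15 (adjusted p = 0.0652) and to Lyz1 at -0.39 (0.0838). Of 9 stomach genes 2 rose, the proton pump subunit Atp4a (0.93, adjusted p = 0.0143) and Barx1 (0.27, 0.0381), while Gkn1, Gkn2 and Pgc did not pass the filter. Of 11 liver genes 1 rose, the antitrypsin gene Serpina1b (3.09, adjusted p = 0.00319), and 1 fell, the retinol carrier Rbp4 (-0.98, 0.0159).

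Markers of non-epithelial cells moved in part. Of 12 myeloid and lymphoid genes limma called 0, with 2 at an unadjusted p under 0.05 (Csf1r, -0.36, and Lyz2, -0.38). The mean log2 level of that list was -0.48 to -0.28 in mutant replicates 1, 3 and 4, -0.01 in mutant replicate 2 and -0.51 to -0.23 in wild-type pools. Of 12 mesenchymal genes 2 rose, Nkx3-2 (0.57, adjusted p = 0.0138) and Barx1, which also stands in the stomach list. Of 9 endothelial genes limma called 0, and 0 had an unadjusted p under 0.05. Of 9 erythroid genes 2 rose, the embryonic globins Hbb-y (1.67, adjusted p = 0.0442) and Hba-x (1.42, 0.0487). The erythroid list had a median difference of 0.09, or -0.37 without mutant replicate 2. The mean log2 level of the erythroid list was -1.85 to -1.28 in mutant replicates 1, 3 and 4, 0.25 in mutant replicate 2 and -1.64 to -1.01 in wild-type pools. In mutant replicates 1 to 4 Hbb-y was at 2.01, 2.50, 2.12 and 1.17, and Hba-x at 1.43, 1.85, 1.49 and 0.78. The part of these cell types in the Reg values was not tested.

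**Figure D5:**
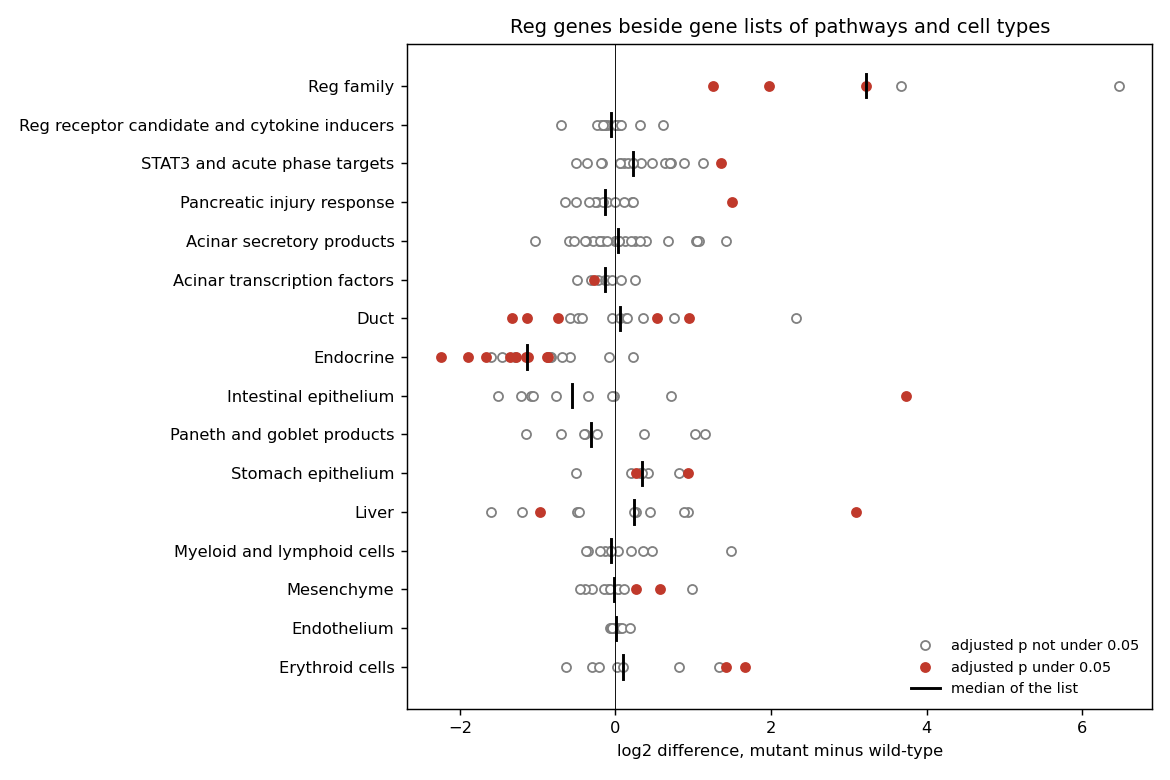
Log2 difference, mutant minus wild-type, of the 5 Reg genes tested and of the genes of 15 pathway and cell type lists. Each point is a gene, filled where the adjusted p was under 0.05, and bars mark list medians; the Reg median is 3.22, against -0.05 for the receptor and cytokine list, 0.03 for acinar products and -1.13 for endocrine genes.

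Without mutant replicate 2 the calls in these lists changed. The counts higher and lower became 2 and 0 for STAT3 targets, 1 and 2 for injury genes, 1 and 0 for acinar products, where Pla2g1b passed (limma adjusted p = 0.00264), and 0 and 2 for acinar transcription factors. They became 5 and 4 for duct, 0 and 14 for endocrine, 1 and 1 for intestine, 0 and 2 for Paneth and goblet, 3 and 0 for stomach, 2 and 1 for liver, 1 and 0 for myeloid and lymphoid, 3 and 1 for mesenchyme and 2 and 1 for erythroid genes. The receptor and cytokine list and the endothelial list kept 0 calls. Over all features 17.3% were called without that array.

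No gene beside the Reg cluster was called with all arrays. Within 2000 kb of it 2 other features passed the filter, Ctnna2, the neuronal alpha-catenin, and 6330415B21Rik. Ctnna2, 1492 kb from the cluster, differed by -0.59 (limma adjusted p = 0.0625), and by -0.66 without mutant replicate 2 (adjusted p = 0.0245). The transcript 6330415B21Rik, 993 kb away, differed by -0.33 (adjusted p = 0.480).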

How the data were processed

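Total RNA of 8 pools was measured on one-colour Agilent arrays (design 014868). The intensities were deposited as scanner output and, per the file headers, were made with Feature Extraction 9.5.3.1, which subtracted background within each array and put surrogates for low values. The submitters' processing notes name limma without a version, and the authors' later steps are not given in the sources used here. Probe coordinates are on mm8.

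The deposited intensity of each spot was put on a log2 scale, and spots flagged as outliers were left out. Spots were then averaged per probe and centred on the array's 75th percentile (R 4.3.3). Probes well above background on at least 4 of 8 arrays were kept, with the probe of highest mean signal for each gene. This left 19393 features, of which 1082 were called at an adjusted p under 0.05 by limma 3.58.1 (lmFit, eBayes, Benjamini-Hochberg). The fit was tested on simulated data with 200 changed genes. Current symbols were found by accession for 24375 of 41174 probes, by symbol for 6301 and by synonym for 2426, and 8072 had none. The number of arrays, 4 per genotype, limits the precision.

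The Reg genes, the lists and the tests were chosen with earlier results of these data known. Genes named from a list are up to 4 called by adjusted p, or the 2 with the smallest p where none was called. Extl3, Stat3, Socs3 and Nupr1 were added for their roles after their values were seen. The nearest patterns are the 3 features with a current symbol and the highest Pearson r to each Reg gene, so their r is high by choice. Same-numbered pools did not deviate together (r = 0.02, -0.02, 0.05 and 0.13), so replicate numbers were not used as pairs. Promoter windows are from RefSeq (GRCm38.p6), aligned with Biopython 1.88. Probe sequences were not used here, and hybridisation of one Reg RNA to the probe of another was not tested. Alternatives were each array left out, a replicate block, normexp (offset 50), quantile normalization, median centring, other filters, the mean of probes, array weights, the deposited series table and, chosen after seeing the data, quantile normalization without mutant replicate 2.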

Additional observations from a re-analysis of the deposited data

Results flagged for a closer look

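The Reg4 level of mutant replicate 2 lay far from the other 3 mutant pools. Its gap to the nearest of them was 0.986 of the range of the mutant pools, above Dixon's 95% critical value for 4 samples, at a log2 level of -2.23. It was 1 of 14 Reg gene and genotype combinations examined. The other 3 mutant values were surrogates set by the scanner software, so their closeness is not a measured spread. The Dixon level therefore does not apply to this value. The array is the one with the raised median signal described above, and its part in this value was not tested.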

How the results depend on the processing

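All 90 differences of single Reg genes computed over 18 alternatives were positive, a sign that the choice of the genes favours. Of them 4 moved beyond the spread between pools. These were Reg2 and Reg3g, at 0.66 and 1.82 after normexp correction and at 1.08 and 2.11 from the deposited series table. Reg3b, with the widest spread between pools, was not among them. Its difference of 6.46 still fell to 3.93 with normexp correction and to 4.36 with the series table. The median difference of the Reg genes, 3.22, moved to 1.82 with normexp correction and 2.07 with the series table. The number of Reg genes called, 3 of 5, was 0 to 4 with 1 array left out, 0 with the replicate block, normexp correction or median centring, 0 of 7 with no filter, 1 with quantile normalization and 5 with array weights. The number of all features called, 1082, was 358 to 3364 with 1 array left out, 146 with the replicate block, 81 with normexp correction, 45 with median centring, 398 with no filter, 716 with the mean of probes, 4700 with array weights, 2178 with the series table and 3519 with quantile normalization without mutant replicate 2. Median centring moved the median of all features to -0.40, and Sox9 then had a difference of -1.73 (limma adjusted p = 0.110). The cause of these changes was not tested. Low signal over background limits Reg2, Reg3a and Reg4 in wild-type pools.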

Other observations

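Other large rises stood near the Reg genes in rank. The genes in this paragraph were chosen after their values were seen, from the features with the largest differences without mutant replicate 2. Kctd14, a potassium channel tetramerisation domain gene, was at -1.39 ± 0.55 in mutant and -5.28 ± 0.36 in wild-type pools (log2, SD, n = 4 each; limma adjusted p = 0.00216). The antitrypsin genes Serpina1d and Serpina1e rose with Serpina1b, by 2.68 (adjusted p = 0.00643) and 3.04 (0.00463) on the log2 scale. These are near-identical paralogues, and cross-hybridisation was not tested. The aldo-keto reductase genes Akr1c14 and Akr1b7 rose by 2.67 (adjusted p = 0.00102) and 2.20 (0.00821). Without mutant replicate 2 the differences were 3.88 for Kctd14, 2.64 for Serpina1d, 2.89 for Serpina1e, 2.73 for Akr1c14 and 2.39 for Akr1b7.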
